A study of Drosophila melanogaster with 4 samples.

Results

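The regions described are the long stretches of the *Drosophila melanogaster* genome in which no cluster of elongating RNA polymerase II was listed in Clone 8 cells. All clusters of 3 deposited lists on the arms 2L, 2R, 3L, 3R, X and 4 were merged where they overlapped, which gave 5651 intervals, and each stretch of 50 kb or more between consecutive intervals was kept, without the chromosome ends. This left 518 gaps out of 5643 gaps of any length. The gaps were therefore chosen by the positions of the clusters, and their number, length and place are given as a description, without a test. All positions follow FlyBase release 5, which the file headers name.

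Clone 8 (CME-W1-Cl.8+) is a cell line labelled male, made from the dorsal mesothoracic disc of larvae in the third instar. Fixation was in 1.8% formaldehyde over 10 min, followed by immunoprecipitation with the antibody ab5095, which recognises RNA polymerase II phosphorylated at serine 2 of its carboxy-terminal repeats. The labels name 2 immunoprecipitated samples, replicates 1 and 2, and 2 inputs, all untreated and of the same line, and the input values were not analysed here. The lists are 1 for each immunoprecipitation and 1 for the whole replicate set. That last one is named the combined list below, is the authors' pooled result and carries no SD or n. Since no label says that the replicates are separate cultures, their spread may be technical only.

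RNA polymerase II acquires phosphate on serine 2 after it has left the promoter, so the mark is found along the bodies of genes that are being transcribed. In the fly genome, active genes tend to lie in dense groups, and long silent stretches tend to hold genes used in other tissues or at other stages, often in chromatin bound by Polycomb proteins or lying at the nuclear lamina. Whether any gap here is of such a kind was not tested, since genes, chromatin marks and sequence were not analysed here. Whether reads could be aligned throughout the gaps was not tested either, so a gap is a stretch with no listed cluster, and not one shown to lack polymerase.

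On the 6 arms, replicate 1 held 5232 clusters over 19.9 Mb, replicate 2 held 5070 over 21.2 Mb and the combined list held 5667 over 24.4 Mb. Each cluster has a score that was read as log2 enrichment, on grounds given with the processing. Sequencing depth is unknown for these lists, which state no read numbers. The lists also name a few clusters as depleted, 1 in each replicate and 23 in the combined list, and these were merged with the others. The intervals given below cover counting error over clusters only.

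Stretches without a cluster of 50 kb or more made up 51.6 Mb, 42.9% of the 120.4 Mb of the 6 arms. They were 9.18% of all gaps by number and 54.1% of the gap length. The 5125 gaps under 50 kb were mostly far shorter, and 1841 of them measured less than 2 kb. The median over all gaps was 4.74 kb. Gaps of 20 to 50 kb, the class just below the threshold, numbered 727 and held 23.0 Mb, close to the 22.7 Mb in the 332 gaps of 50 to 100 kb. There was no break at the threshold: the 3 gaps just inside it measured 50081 bp on 3L, 50110 bp on 3R and 50239 bp on 2R, and the 3 just outside measured 49776 bp on 3L, 49749 bp on 2L and 49652 bp on 2R.

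The median gap of 50 kb or more was 81.1 kb long, with quartiles at 61.6 and 119 kb. A length of 100 kb was reached by 186 gaps, 200 kb by 27, 300 kb by 7 and 400 kb by 2. The 186 gaps of 100 kb or longer were 35.9% of these gaps and held 56.0% of their length. The number fell off steeply with length in every list, as the plot of gaps by minimum length shows.

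**Figure D1:**
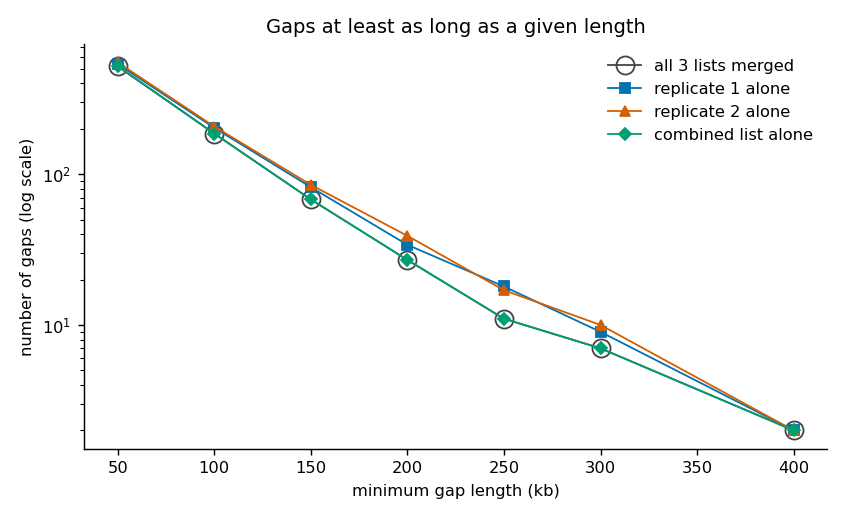
Number of gaps (log scale) at least as long as the length on the x axis (kb), for the 3 lists merged and for each list alone. Merged and combined lists lie almost on each other, with 518 and 522 gaps at 50 kb, and the replicates alone lie above them up to 300 kb.

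The gaps of the replicates took up nearly the same bases. Taken alone, replicate 1 left 538 gaps of 50 kb or longer over 55.9 Mb and replicate 2 left 551 over 57.3 Mb (means of 544.5 ± 9.19 gaps and 56.6 ± 0.959 Mb, SD, n = 2). Their median lengths were 83.5 and 84.2 kb. The replicates shared 53.8 Mb of gap, 96.2% of the gap length of replicate 1 and 93.9% of that of replicate 2, a Jaccard index of 90.6%. Gaps drawn from 1 list can be longer than in the merged lists but not shorter. In replicate 1, 423 of the 518 merged gaps were at most 1.1 times as long as after merging, and in replicate 2 this held for 404, with 367 in both. A length of at least 1.5 times the merged one was seen for 37 gaps in replicate 1 and for 48 in replicate 2. As units the gaps were less alike than in length. Of the 538 gaps of replicate 1, 78 held a cluster of replicate 2. Of the 551 gaps of replicate 2, 109 held a cluster of replicate 1.

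The clusters that interrupted a gap in the other replicate were narrow and weak. Inside the 538 gaps of replicate 1 lay 103 clusters of replicate 2, at medians of 1785 bp in width and 0.52 in log2 enrichment, against 2748 bp and 0.91 for the rest of replicate 2. Inside the 551 gaps of replicate 2 lay 128 clusters of replicate 1, with medians of 1742.5 bp and 0.41, against 2606 bp and 0.99 for the rest of replicate 1. Merging the replicates gave 525 gaps. A further 127 combined clusters, which overlapped no cluster of either replicate at those places, lay inside 99 of these 525 gaps. They had medians of 1307 bp and 0.34 in log2 enrichment, although the highest reached 3.50. The widest of these interrupting clusters measured 5.73 kb in replicate 2, 2.82 kb in replicate 1 and 2.39 kb in the combined list. By definition they were absent from the other list at that place, which need not hold for the rest. All 660 combined clusters overlapping neither replicate had medians of 1311 bp and 0.36, close to those of the 127. Whether the contrasts between the replicates are particular to gaps was not tested.

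The longest gap lay on 3L from 24031410 to 24529541, next to the centromeric end of that arm, and measured 498 kb after merging. It was 499 kb long in replicate 1 and 498 kb in replicate 2. In the combined list its lower edge was 10.6 kb wide at a log2 enrichment of 0.69, and its upper edge was 6.75 kb wide at 0.87. The second lay on 2L from 16911235 to 17382891 and measured 472 kb in both replicates and after merging. Its edges were unequal, with log2 enrichments of 0.38 and 0.59 in replicates 1 and 2 at the lower edge and 2.16 and 2.17 at the upper edge. The third, 387 kb on 3L from 13507704 to 13894498, measured 387 kb in replicate 1 and 390 kb in replicate 2. A weak cluster formed its upper edge, with a log2 enrichment of 0.35 in replicate 1, none listed in replicate 2 and 0.087 in the combined list.

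The longest gap of X lay at 20529707 to 20895951 and measured 366 kb, with 368 kb in replicate 1 and 367 kb in replicate 2. Both its edges were above the median of their lists, with log2 enrichments of 1.80 and 1.62 in replicates 1 and 2 at the lower edge and 2.01 and 1.58 at the upper edge. On 2L the gap from 4477933 to 4828577 measured 351 kb, with 351 kb in replicate 1 and 368 kb in replicate 2. Its lower edge was a combined cluster named as depleted, at -0.029, where replicate 1 had an enriched cluster at 0.15 and replicate 2 had none. On 3L the gap from 23337238 to 23678735 measured 341 kb after merging but 373 kb in replicate 1 and 371 kb in replicate 2. Both of these gaps ended at clusters missing from at least 1 replicate list.

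Of the other 4 among the 10 longest, the 2L gap from 14690654 to 14994648 measured 304 kb after merging, 304 kb in replicate 1 and 306 kb in replicate 2. The X gap from 21569304 to 21845722 measured 276 kb after merging and 344 kb in each replicate, because a 2.18 kb combined cluster at a log2 enrichment of 1.20, found in neither replicate, opened it. The longest gap of 3R, from 18608154 to 18875953, measured 268 kb after merging and 294 kb in each replicate, and it too began at a combined cluster found in neither, of 1.47 kb at 0.13. The longest of 2R, from 721128 to 977163, measured 256 kb after merging, with 259 kb in replicate 1 and 256 kb in replicate 2. The order of the 10 longest gaps thus depends in part on combined clusters that neither replicate list holds.

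Gaps lay on every arm, in unequal shares. Of the 5 large arms, 2L had the highest share, with 96 gaps over 47.4%, and 2R the lowest, with 83 gaps over 36.9%. Between them lay 3R with 133 gaps and 45.4%, 3L with 110 and 44.8%, and X with 94 and 40.8%. Drawn from the replicates alone, gaps took 51.4 ± 1.18% on 2L, 50.2 ± 1.94% on 3L, 47.8 ± 0.0413% on 3R, 45.9 ± 0.649% on X and 40.4 ± 0.428% on 2R (SD, n = 2). The order of 3L and 3R thus differed between the merged lists and the replicates, while 2L was highest and 2R lowest of the 5 large arms in both. The median length ran from 74.1 kb on 3L and 75.5 kb on 3R over 80.6 kb on X and 83.1 kb on 2R to 96.3 kb on 2L. On 2L, 44 of the 96 gaps were 100 kb or longer, against 25 of the 83 on 2R.

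Chromosome 4, the small autosome, had 2 gaps, of 57.7 kb from 739990 to 797716 and of 51.5 kb from 1082549 to 1134029, which made up 8.08% of it. Alone, replicate 1 left 4 gaps on it over 18.0% and replicate 2 left 4 over 16.5% (17.3 ± 1.08%, SD, n = 2). Among the stretches at the ends of the 6 arm sequences, which the rule leaves out, the one at the start of chromosome 4 measured 62.9 kb, and those of the large arms measured from 4.47 to 42.9 kb.

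Along the large arms the gaps were spread over the whole length. The proximal 50% of each arm, the part nearer the centromere, held 51.4% of the gap length after merging, and 51.5% and 51.0% in replicates 1 and 2. When each arm was cut into 10 segments of equal length, numbered from the distal end, the segments of an arm differed far more than this. Segment 10, the most proximal, had the largest share in gaps on X, with 66.4%, and on 3L, with 70.5%. From replicates 1 and 2 alone these shares were 74.6% and 68.7% on X and 77.3% and 74.1% on 3L. Segment 9 of 3L had the smallest share of that arm, at 20.4%. On 2L the largest share was in segment 7, at 79.3%, on 2R in segment 3, at 62.4%, and on 3R in segment 2, at 62.1%. Segment 10 of 2L had the smallest share of its arm after merging, at 37.0%, and in replicate 2, at 39.3%. In replicate 1 it had 42.6%, above segments 4, 6 and 9 of that arm, so its place as the lowest did not hold in both replicates.

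**Figure D2:**
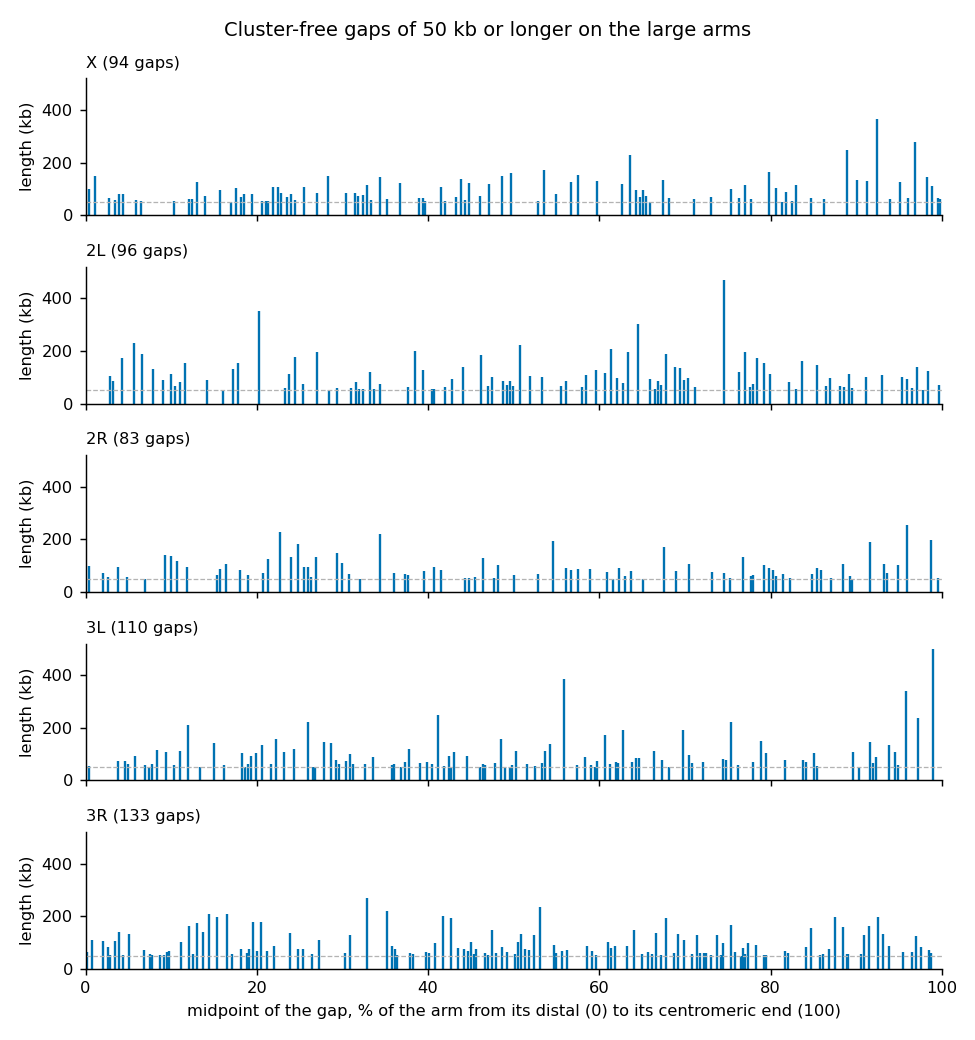
Each vertical line is 1 gap of 50 kb or longer on X, 2L, 2R, 3L or 3R, drawn at its midpoint in percent of the arm from the distal (0) to the centromeric end (100), with its length in kb as height and the 50 kb threshold dashed. The longest gaps, of 498 kb on 3L and 472 kb on 2L, stand far above the medians of 74.1 and 96.3 kb of their arms.

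Of 117 windows of 1 Mb on the large arms, every one held some gap, from 5.07% to 90.7% of its length after merging, with a median of 43.1%. The windows named here were chosen after their values were seen. The emptiest was on 2L from 14000001 to 15000000, with 90.7% in gaps in replicate 1 and 91.0% in replicate 2. After merging it was followed by 2L from 17000001 to 18000000, at 86.8%, and by 3L from 23000001 to 24000000, at 82.6%. The replicates had these windows in the other order, with 86.9% and 86.8% for the 2L window and 89.7% and 89.1% for the 3L window in replicates 1 and 2. After merging and in replicate 1, the window with least gap was on 3L from 21000001 to 22000000. It had 12.2% in gaps in replicate 1 and 18.8% in replicate 2, where X from 13000001 to 14000000 was lower, at 17.1%. Windows of 3L with much and with little gap thus lay close together.

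Consecutive gaps were separated by stretches that ranged from a single cluster to large groups. There were 512 such stretches, with a median length of 78.4 kb (quartiles 22.0 and 183 kb) and a median of 7 merged intervals. The lengths of the gaps on the 2 sides of a stretch were almost unrelated, with a Spearman rho of 0.053 across 512 pairs that share gaps and libraries. The longest stretch between gaps ran over 949 kb of 3L from 20999972 to 21949267 and held 61 clusters in replicate 1 and 65 in replicate 2. The next ran over 811 kb of X from 1471631 to 2282823, with 65 and 64 clusters in replicates 1 and 2. Stretches longer than 500 kb numbered 15.

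At the other end, 90 of the 512 stretches (17.6%) held a single merged interval, so that 1 isolated piece of signal stood between gaps of 50 kb or more on each side. These isolated intervals were found on each large arm, with 26 on 3R, 21 on 3L, 18 on 2L, 14 on X and 11 on 2R. Both replicates had a cluster at 65 of the 90 (72.2%, exact binomial interval 61.8 to 81.1%), against 3461 of the 4705 intervals that bordered no gap (73.6%, 72.3 to 74.8%). Replicate 1 alone had a cluster at 9, replicate 2 alone at 7, and neither at 9. The median width of the isolated intervals was 2305 bp, against 2749 bp for intervals bordering no gap.

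The clusters in them had median log2 enrichments of 1.11 in replicate 1 and 0.96 in replicate 2 (1.04 ± 0.11, SD, n = 2), against 0.97 and 0.89 for clusters in intervals bordering no gap (0.93 ± 0.05). The isolated medians were higher in both replicates. As 2 replicates cannot give an exact sign-flip p below 0.5, no comparison of edge or isolated clusters carries a call. In the combined list the isolated clusters ran from -0.0031 to 3.45, with 14 of 90 at 2 or above and 24 below 0.5. Combined clusters at no gap edge had a lower quartile of 0.41 and a 90th percentile of 1.90. Their shares at the bounds of 2 and 0.5 were not counted, so whether isolated clusters differ in this was not tested.

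The strongest isolated cluster lay on 3L from 20941438 to 20944284, between gaps of 106 and 55.7 kb, and had log2 enrichments of 3.69 in replicate 1, 3.24 in replicate 2 and 3.45 in the combined list. An isolated cluster of 21.3 kb on 2R, in the interval from 9212303 to 9233614, had 3.10 in replicate 1, 2.97 in replicate 2 and 3.02 in the combined list, between gaps of 85.2 and 91.2 kb. This one was both broad and strong. The interval on 3R from 7177734 to 7180295 had 2.84, 2.58 and 2.69 in replicate 1, replicate 2 and the combined list. In contrast, a combined cluster of 1001 bp on 3R from 23999611 to 24000611 had a log2 enrichment of 3.08 there but no cluster in either replicate. These intervals were picked as the highest after their values were seen, except the first, which the naming rule gave.

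**Figure D3:**
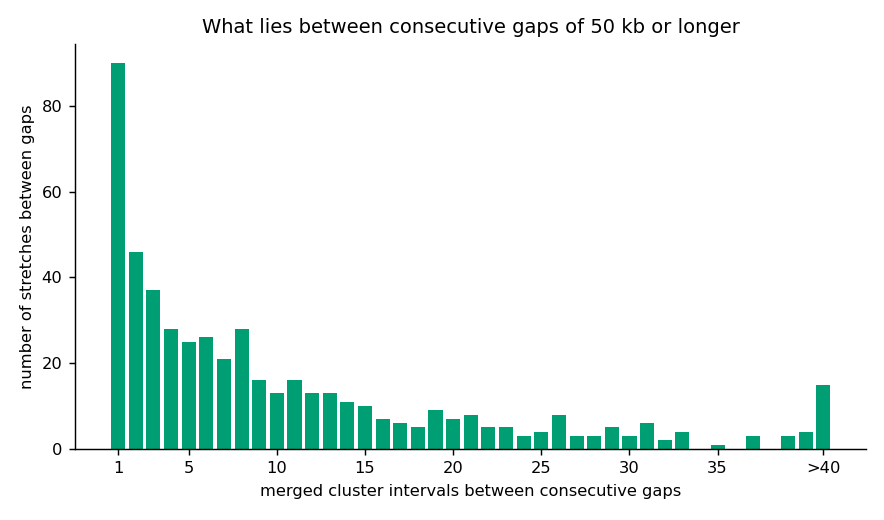
Number of stretches between consecutive gaps (y axis) by the count of merged cluster intervals they hold (x axis, the last bar pooling counts over 40). The tallest bar is that of single intervals, 90 of 512, and the median is 7.

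Where isolated intervals followed each other, gaps formed runs. Of the 518 gaps, 160 lay in 70 runs in which each gap was separated from the next by a single merged interval: 56 runs had 2 gaps, 9 had 3, 4 had 4 and 1 had 5. The longest run covered 633 kb of 3R from 23790175 to 24422765, with 4 gaps and 3 intervals that held 8.42% of its length. Of these intervals, the one from 23999611 to 24000611 was in the combined list alone. The gaps on its sides were thus not separated in either replicate. The run had 4 clusters in replicate 1, the highest at 1.98, and 8 in replicate 2, the highest at 2.28. The next covered 584 kb of 2L from 14410974 to 14994648 and was 99.1% gap. Its 2 isolated clusters had log2 enrichments of 2.78 and 1.65 in replicate 1 and 2.36 and 1.28 in replicate 2.

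The run with most gaps, 5, covered 569 kb of X from 14147426 to 14716735. Replicate 1 had a cluster at each of its 4 isolated intervals, at 0.43, 0.90, 1.76 and 0.46, while replicate 2 had clusters at the middle intervals only, at 0.88 and 0.88. The fourth run covered 499 kb of X from 20396561 to 20895951, with a single cluster inside it, at 1.80 in replicate 1 and 1.62 in replicate 2. The fifth covered 435 kb of 2R from 15558290 to 15992897. Of its isolated clusters, 2 were strong in each replicate, at 2.83 and 2.49 in replicate 1 and 2.48 and 2.10 in replicate 2, and the remaining interval was in the combined list alone.

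The clusters at the edges of the gaps were the second object of the description. For each of the 1036 edges, the cluster nearest to the gap in the bordering interval was taken from each list. Replicate 1 had a cluster at 881 edges (85.0%), replicate 2 at 859 (82.9%) and the combined list at 1031 (99.5%). Some clusters bordered a gap on each side, so these were 811 edge clusters in replicate 1, 789 in replicate 2 and 941 in the combined list. Widths and scores of the clusters took no direct part in the choice of gaps, but a wide cluster takes up room that a gap could have.

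Edge clusters were about as strong as the others. In replicates 1 and 2 their median log2 enrichments were 0.96 and 0.91, against 0.97 and 0.89 for all other clusters of the same lists. The difference, edge minus other, came to -0.0098 in replicate 1 and 0.020 in replicate 2 (a mean of 0.0049 ± 0.021, SD, n = 2), so it had opposite signs in the replicates and was smaller than their spread. The combined list gave medians of 0.79 for edge and 0.73 for other clusters, which differ by 0.056. The upper tails were also close, with 90th percentiles of 2.22 and 2.02 for edge clusters in replicates 1 and 2, against 2.17 and 1.92 for the others.

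Edge clusters were narrower. Their median width was 2343 bp in replicate 1 and 2532 bp in replicate 2, against 2607 and 2748 bp for the others. The difference in width came to -264 bp in replicate 1 and -216 bp in replicate 2 (mean -240.0 ± 33.9 bp, SD, n = 2). In the combined list it came to -245.5 bp. It had the same sign on each of the 5 large arms in both replicates, between -125.5 and -364 bp in replicate 1 and between -154.5 and -391 bp in replicate 2. The difference is small beside the spread of widths, as the quartiles of edge clusters were 2008.5 and 3585.5 bp in replicate 1 and 2035 and 4072 bp in replicate 2.

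Wide clusters were found at edges too. Clusters of 10 kb or wider made up 3.70% of edge clusters in replicate 1 and 4.56% in replicate 2, against 4.73% and 6.56% of the others. In the combined list 53 of the 941 edge clusters (5.63%) were that wide, against 7.18% of all combined clusters on the 6 arms. The widest combined cluster, 122 kb on 3L from 22279915 to 22402371, was an edge cluster, with a gap of 146 kb after it. So were the 92.8 kb cluster on 3R from 4892255 to 4985094, before a gap of 60.1 kb, and the 54.1 kb cluster on X from 17348658 to 17402717, before one of 61.9 kb. Broad clusters and long gaps thus adjoined directly. The other 2 of the 5 widest edge clusters were 30.1 kb on 2R from 11621514 to 11651599 and 29.3 kb on X from 18516281 to 18545543.

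Since wider clusters had higher scores, edge and other clusters were also compared at equal width. Across edges of these gaps, the Spearman rho of width and log2 enrichment was 0.675 in replicate 1 (881 edges) and 0.648 in replicate 2 (859 edges). Within 10 classes of cluster width that hold equal numbers of clusters, edge clusters exceeded the others by 0.062 in replicate 1 and 0.057 in replicate 2 (a mean of 0.059 ± 0.0032, SD, n = 2). In the combined list they did so by 0.053. The difference at equal width thus had 1 sign in all 3 lists, of which the combined one covers the same libraries. It was small next to the SD of 0.72 over edge clusters in replicate 1 and 0.64 in replicate 2.

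The strongest edge clusters were among the strongest of the whole list. Of the 100 combined clusters with the highest score on the 6 arms, 24 bordered a gap, where edge clusters were 16.6% of the list. The highest was the isolated 3L cluster described above. The second lay on 2L from 14408402 to 14410973, at the start of the run on that arm, with 3.73 in replicate 1, 3.16 in replicate 2 and 3.44 in the combined list. The third lay on 3R from 17197683 to 17204171, with 3.35 in replicate 1 and 3.13 in replicate 2. On X the cluster from 5320752 to 5328314 had 3.06 in replicate 1 and 3.23 in replicate 2, before a gap of 81.7 kb. On 3L the cluster from 14264306 to 14268650 had 3.41 in replicate 1 and 2.80 in replicate 2, before a gap of 87.1 kb.

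The length of a gap told little about the clusters at its edges. Over gaps of every length, the median log2 enrichment of edge clusters in replicate 1 was 0.96 for gaps under 2 kb, 1.02 for those of 20 to 50 kb, 1.00 for those of 50 to 100 kb and 0.96 for those of 100 kb or longer. In replicate 2 the same classes had 0.85, 0.95, 0.95 and 0.90. Median widths in these classes were 2700, 2348, 2298 and 2403 bp in replicate 1 and 2822, 2495, 2514 and 2509 bp in replicate 2. Beside gaps of 10 to 20 kb they were already 2349 and 2540 bp in replicates 1 and 2. Widths were thus lower in every class from 10 kb up than beside the shortest gaps, and among those classes they did not follow 1 order in both replicates. Among the gaps of 50 kb or longer, gap length had a Spearman rho of -0.016 and -0.018 with log2 enrichment in replicates 1 and 2, and of 0.053 and 0.025 with width, across edges of the same libraries.

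**Figure D4:**
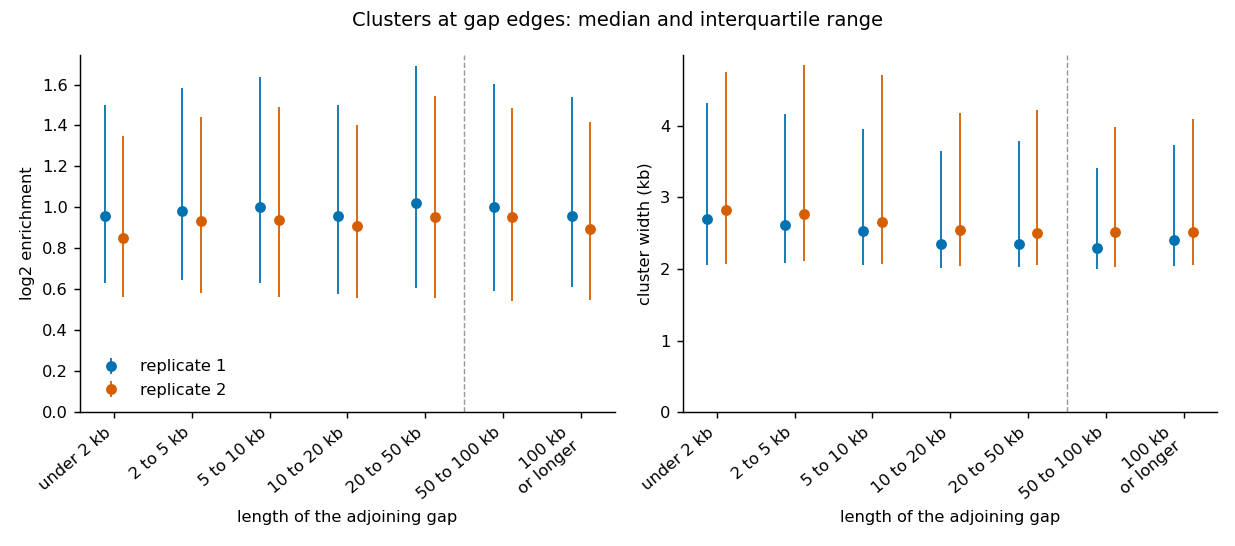
Median (points) and interquartile range (lines) of the log2 enrichment (left) and width in kb (right) of the clusters at gap edges, by length of the adjoining gap, in replicates 1 and 2. The dashed line marks 50 kb: the medians of log2 enrichment stay between 0.85 and 1.02 in every class, and those of width between 2.30 and 2.82 kb.

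The 2 edges of a gap showed almost no relation in strength. Across the 379 gaps with a cluster at each edge in replicate 1, the Spearman rho of the 2 log2 enrichments was -0.020, and across 356 gaps in replicate 2 it was -0.032. For widths it was -0.014 and -0.084 in replicates 1 and 2. Over gaps of every length, the rho of the log2 enrichments was -0.012 in replicate 1 and -0.024 in replicate 2. In the combined list 147 of 513 gaps had both edges at or above the list's median, 254 had 1 and 112 had none. A cut at the median splits unrelated edges in about this way. The edges of a gap differed by more than 1 log2 unit in 153 of the 513, and the median difference was 0.61. Gaps under 50 kb were not counted in these ways, so whether the counts are particular to long gaps was not tested. Median log2 enrichments were 1.00 at upper and 0.98 at lower edges in replicate 1, and 0.95 and 0.89 in replicate 2, so upper edges were slightly higher in both. Widths did not share that order, with 2305 bp at upper and 2351.5 bp at lower edges in replicate 1, and 2550 and 2476 bp in replicate 2.

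Arms differed in how the edge clusters compared with the rest. On 3L, edge clusters had a median log2 enrichment of 1.05 in replicate 1 and 0.99 in replicate 2, against 0.92 and 0.83 for other 3L clusters (a difference of 0.14 ± 0.017, SD, n = 2). On the other large arms the difference lay between -0.073 and -0.035 in replicate 1, and between -0.0068 and 0.027 in replicate 2. The combined list did not show the same order, as the difference there was 0.028 on 3L and 0.15 on X. The test of a difference between arms was not made, as the arms are single chromosomes of 2 libraries.

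Edges were placed at nearly the same base by the replicates. At the 801 edges where both had a cluster (77.3% of 1036), the positions differed by a median of 59 bp. They lay within 100 bp of each other at 64.3% of these edges and more than 1 kb apart at 4.37%. For gaps of 20 to 50 kb the median difference was 54 bp and for gaps of 2 to 5 kb it was 81 bp. The log2 enrichments of both replicates at these edges had a Spearman rho of 0.865, and replicate 2 minus replicate 1 averaged -0.13 ± 0.32 (SD over edges). Only replicate 1 had a cluster at 80 edges, only replicate 2 at 58, and neither at 97 (9.36%). Shorter gaps had similar shares. For gaps of 20 to 50 kb both replicates had a cluster at 78.8% of edges and neither at 7.57%. For gaps of 2 to 5 kb these shares were 76.9% and 10.5%. Both edges were held by both replicates in 312 of the 518 gaps (60.2%). This count was not made for shorter gaps, so whether it is particular to long ones was not tested.

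The combined list set most edges. At 607 of the 1036 (58.6%) the first base of the gap followed from a combined cluster, and at 593 of them from that list alone. This was not particular to long gaps, as the share was 58.0% for gaps of 20 to 50 kb and 66.3% for those of 2 to 5 kb. Of the 941 combined edge clusters, 736 overlapped clusters of both replicates by 1 bp or more (78.2%, exact binomial interval 75.4 to 80.8%), against 74.5% of all combined clusters of the 6 arms. Neither replicate was met by 88 (9.35%), against 11.6% of all. Presence in the lists enters the rule, so these shares are a description. The 88 were narrow and weak, with medians of 1298.5 bp and 0.36 in log2 enrichment, against 2985.5 bp and 0.98 for the 736. The 572 other combined clusters met by neither replicate had medians of 1314 bp and 0.36, so these values were not particular to edges.

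In the combined list, 16.6% of the clusters were edge clusters. Of the 23 combined clusters named as depleted, 8 bordered a gap, at 9 edges of 9 gaps. Their values ran from -0.11 to -0.0031, close to 0. One of them, on 2L from 5402810 to 5404685, was an isolated cluster between gaps of 59.5 and 113 kb. Without depleted clusters the number of gaps was 520.

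Beyond the edges, the share of all bases in clusters fell with distance and came close to the mean of the arms by 50 to 60 kb. The first 10 kb beyond an edge were covered to 37.8% in replicate 1 and 39.7% in replicate 2, which the edge cluster itself brings about by construction. From 10 to 20 kb replicate 1 was covered to 20.4% and replicate 2 to 21.8% (a mean of 21.1 ± 1.02%, SD, n = 2). From 20 to 30 kb the shares were 19.5% and 20.7%. At 50 to 60 kb it was 16.8% and 18.1%, close to the 16.6% and 17.6% of the 6 arms as a whole. These bins include other gaps, and near an edge they do so less by construction. The share of bases in other gaps was 13.3% in the first 10 kb and 22.0% from 10 to 20 kb. From 50 to 60 kb it was 39.5%, against 42.9% over the arms. The fall over all bases therefore follows at least in part from the rule. Counting only bases outside all 518 gaps, the share from 10 to 20 kb was 26.1% and 27.9% in replicates 1 and 2, against 29.0% and 30.8% over the arms outside the gaps. It was lowest from 30 to 40 kb, at 25.3% and 27.3%. From 70 to 80 kb it was 29.3% and 30.7%. Outside the gaps, every bin from 10 to 70 kb thus lay below the value over the arms in both replicates. The value over the arms includes the first bin beyond each edge, however, which the edge clusters raise by construction. Without bases in gaps, that first bin reached 43.6% (replicate 1) and 45.8% (replicate 2). No value leaving it out was computed, so whether these bins lie below the remaining bases was not tested. Farther out, bins lay on both sides of the value over the arms. From 90 to 100 kb the share was 30.7% and 32.1% in replicates 1 and 2, and from 190 to 200 kb it was 28.1% and 30.0%. Shares below the value over the arms were therefore not limited to the bins near the edges.

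**Figure D5:**
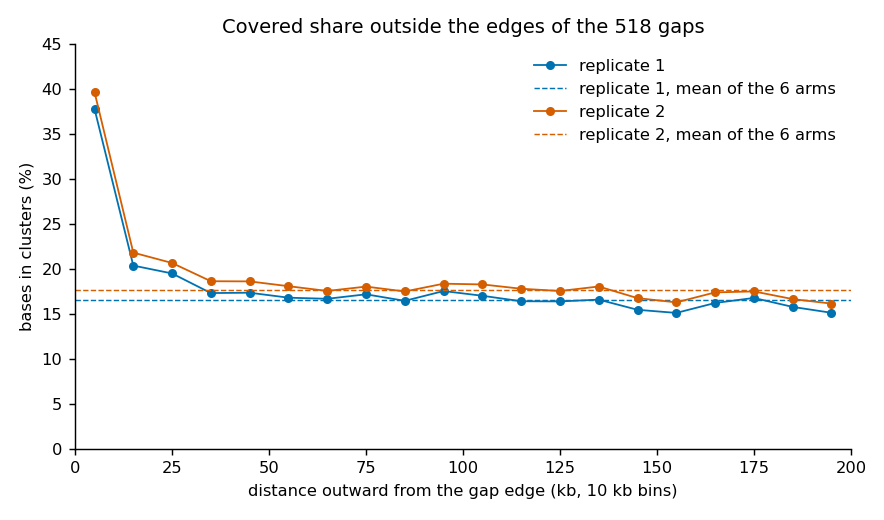
Percent of bases in clusters (y axis) in 10 kb bins outward from the edges of the 518 gaps, averaged over edges, in replicates 1 and 2; dashed lines are the means of the 6 arms, 16.6% and 17.6%. After the first bin, which holds the edge cluster, both curves lie within a few percentage points of their dashed line.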

How the data were processed

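Chromatin immunoprecipitation and sequencing was done in 2 immunoprecipitated samples. The submitters' processing notes name Bowtie 0.12.7 as a tool. The authors deposited 3 lists of clusters on FlyBase release 5, per the file headers, with the first and last base of each. Which program called the clusters, at which thresholds, how the input entered and how replicates were pooled is not given in the sources used here. For each cluster the authors deposited a score, taken here as log2 enrichment, since 237 of 26796 differences between repeated scores in replicate 1 matched base 2 logarithms of ratios of whole numbers up to 14 (within 1e-08), against 0 in natural logarithms and 3 in base 10. What it is relative to is not stated.

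Clusters were merged where they overlapped by 1 bp or more. The cluster on chromosome 4 that ran past the sequence end was shortened to it. Gaps, stretches between them and edges were computed with Python 3.11.15, pandas 2.3.3, numpy 2.4.6 and scipy 1.17.1, and tested on simulated data. A cluster that borders 2 gaps counts once. Arm sequences of 2R and 3R start at the centromeric end, the others end there. Clusters of 1 list are not replicates, so no test was run over clusters, and comparisons are given as values of 2 replicates. Named were the 10 longest gaps, the longest of each arm, 3 gaps on each side of the threshold, the 5 strongest and 5 widest combined edge clusters and the 5 longest runs. The alternatives tried were other gap lengths, choices of lists, stricter clusters and each replicate left out. The gaps and lists were chosen with earlier results of these data known. Sequence and genes were not analysed here, as the gene table follows release 6 and coordinates were not converted.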

Additional observations from a re-analysis of the deposited data

How the results depend on the processing

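The number of gaps was 1037 at a minimum length of 25 kb and 186 at 100 kb, and lay between 519 and 625 under the other alternatives. Their total length was 70.0 Mb at 25 kb, 28.9 Mb at 100 kb, 71.1 Mb with the upper 50% of scores, 53.7 Mb with the replicate lists without the combined one and 58.8 Mb with clusters supported by both replicates. Without replicate 1 or 2 the number was 521 and 519 and the length 51.9 and 51.7 Mb. The combined list covers both replicates, so leaving out 1 replicate list changes little by construction.

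The difference in log2 enrichment, edge minus other, was 0.036 at 25 kb, -0.022 at 100 kb, 0.039 with the upper 50% of scores and 0.059 at equal width. It was 0.020 without replicate 1 and -0.0085 without replicate 2. The difference in width was -285.75 bp at 25 kb, -194.25 bp at 100 kb, -537 bp with the upper 50% of scores and -329.5 bp with clusters supported by both replicates, and -230.0 and -266 bp without replicate 1 or 2, so it was negative under every alternative run. The share of gap length in the proximal 50% of the arms was 50.3% at 25 kb, 53.6% at 100 kb and 49.9% with the upper 50% of scores, and 51.4% and 51.5% without replicate 1 or 2. The cause of these changes was not tested. Of 52 alternatives over 6 results, the other 34 moved by less than the spread between replicates, a factor of 1.5 for numbers of gaps, or the binomial interval.

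No paired analysis was possible because the deposited lists hold immunoprecipitated samples only, and inputs with the same numbers were not analysed here. The sequencing depth behind the lists is unknown.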
